A study of Mus musculus with 2 samples.

Results

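The mRNAs of 10 iron homeostasis genes were compared between the prefrontal cortex (PFC) of mice exposed to chronic mild stress (CMS group) and that of control mice (C group). The genes were fixed by name with earlier results of these data known, and they were 10 of 37074 gene names on the array. They were Hamp and Hamp2, which encode the hepcidins, the ligand gene Bmp6, the sensing genes Hfe and Tfr2, the uptake genes Tfrc and Slc11a2, the exporter gene Slc40a1, and the ferritin genes Fth1 and Ftl1. They were read by 14 probes, and in both pools all 10 genes were well above background, which is the scanner software's own call for each spot. Hamp, among other liver-enriched genes, had already been picked by the study from these same arrays.

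All mice were male C57Bl/6 N sea mice, and the methods give an age of 9 to 10 weeks at the start. The C group received ordinary care, and the CMS group was housed singly and exposed to unpredictable mild stressors for 4 weeks, so single housing and the stressors cannot be told apart. Total RNA of the PFC was pooled within each group, and each pool was hybridized to 1 one-color Agilent array. The design text gives 7 mice per pool, whereas the methods give 10 mice per group for arrays and qRT-PCR together.

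With 1 array per group the spread between mice is unknown. No test between the groups was made, and the fold changes below describe these 2 pools. Errors are therefore technical. The error of a signal is the scanner software's estimate for its spot, and the error of a log2 ratio was propagated from both signals. Signals were brought to a mean of 2500 on each array, and every signal below is on this scale unless stated. Over all genes, the median log2 ratio of CMS over control was -0.03, and log2 ratios of repeated spots of 1 probe had an SD of 0.13. Of 27119 gene names with a ratio, 1.99% exceeded 2-fold in the CMS group and 0.59% were below 0.5 times the control signal. Of the names that were gene symbols these shares were 2.27% and 0.436%. Markers of neurons, astrocytes, oligodendrocytes, microglia and brain endothelium were well above background in both pools for every gene of these lists (7 for oligodendrocytes, 8 for each other).

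Iron cannot be excreted in a regulated way in mammals, so its level is set at entry. Hepcidin is a peptide hormone made mainly by hepatocytes, and it binds the only known iron exporter, ferroportin, and causes its breakdown. In liver, Bmp6, Hfe and Tfr2 report iron stores to the Hamp promoter, and inflammation acts on it through interleukin-6 and Stat3. In brain, transferrin receptor on vascular endothelium brings iron in, oligodendrocytes and microglia are rich in ferritin, and local hepcidin mRNA is normally scarce.

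Hamp (NM_032541) was the single member past 2-fold. Its signal was 22.9 ± 4.77 in the control pool and 160 ± 16.5 in the CMS pool. The control signal was thus near the floor of the array, at 1.29 times the lowest signal well above background, and the CMS signal was at 9.08 times that level. The log2 ratio was 2.80 ± 0.33, a fold change of 6.97, and 140 of the 27119 gene names had a higher ratio. Normexp background correction with an offset, followed by quantile normalization, gave a log2 ratio of 1.36. Quantile normalization alone, of the processed signals, gave 2.77. The normexp run started from the median signals of the spots. The parts of this start, the correction and the offset in the lower value were not tested. Within 5 rows and columns of the Hamp spot, 68 other unflagged spots were well above background on both arrays. Their median log2 ratio was -0.05, and 0 of them were more than 2-fold higher. Around the Hamp2 spot, 2 of 70 such spots were more than 2-fold higher. Spots too dim on either array were left out, so a local rise limited to dim spots could not be seen.

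Hamp2 (NM_183257) encodes a second mouse hepcidin, next to Hamp on chromosome 7. Its signal was 34.9 ± 5.38 in the control pool and 52.5 ± 6.60 in the CMS pool. Both pools were again dim, at 1.96 and 2.98 times the lowest signal well above background. The log2 ratio was 0.59 ± 0.29, a fold change of 1.51, so that the direction was that of Hamp and the size was far smaller. The ratio of Hamp exceeded that of Hamp2 by 2.21 ± 0.44 on the log2 scale. The transcripts are close paralogs and probe sequences were not used here, so how far each probe reads the other transcript was not tested.

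The promoters of Hamp and Hamp2 are shown because the pair is nearly identical in sequence and differed in ratio. The 150 bases before the start site of Hamp and the 150 bases of Hamp2 that align with them are given 5′ to 3′, from RefSeq on GRCm38.p6, at chr7:30944030-30944179 and chr7:30924179-30924328, both on the minus strand. The Hamp2 stretch holds 147 bases before its annotated start site and 3 from that site on. Capitals mark GGCGCC, the core of the BMP-responsive element known in the hepcidin promoter, and TTCNNNGAA, the general form of a STAT site.
Hamp: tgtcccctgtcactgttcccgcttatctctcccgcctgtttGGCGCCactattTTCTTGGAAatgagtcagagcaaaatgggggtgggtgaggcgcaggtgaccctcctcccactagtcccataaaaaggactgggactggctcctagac
Hamp2: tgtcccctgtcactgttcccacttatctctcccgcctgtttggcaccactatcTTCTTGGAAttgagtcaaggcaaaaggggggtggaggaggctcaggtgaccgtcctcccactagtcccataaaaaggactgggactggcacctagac

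The stretches were identical at 138 of 150 bases. One of the 12 differences lay in the BMP-responsive core, which the substitution G45A (the Hamp base first, counted from 1 at the 5′ end of the Hamp stretch) leaves without a match in Hamp2. The STAT-type sequence TTCTTGGAA was present in both, and it ended 89 bases before the start site in Hamp and 86 in Hamp2. Motifs were searched on both strands in windows of 250 bases before to 50 after each start site, and these 2 motifs read the same on both strands. GGCGCC was found in 11.9% of 32851 windows and TTCNNNGAA in 8.3%, so neither is rare. Among 12 windows of 8 members, GGCGCC was also found in a Tfrc window. The motif CAAAGTCCA, a form of the HNF4 site, was in 0 of the 12 windows and in 0.475% of all windows. The motif TGACNNNGC, a form of the antioxidant response element, was in 12.4% of all windows and in those of Bmp6 and Hfe. Slc40a1 and Slc11a2 were not searched. A match is a description of the letters and not evidence of binding.

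**Figure D1:**
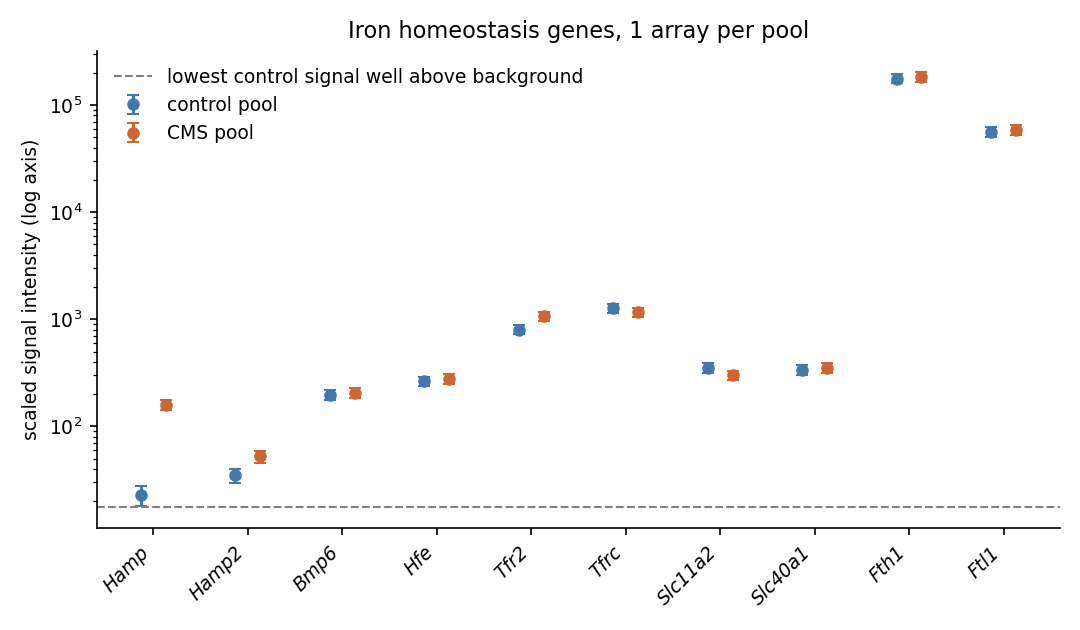
Scaled signal intensity (log axis) of the 10 iron homeostasis genes in the control pool and the CMS pool, with 1 point per array and bars for the scanner software's error of the signal. Hamp is at 22.9 in the control pool, just above the dashed line, and at 160 in the CMS pool, while the points of the other genes lie close together; heights of different genes come from different probes and cannot be compared.

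The genes of the ligand and of Hfe differed little between the pools. Bmp6, the ligand that couples liver iron to hepcidin, had signals of 197 ± 20.2 in the control pool and 207 ± 21.2 in the CMS pool, or a log2 ratio of 0.07 ± 0.21. Hfe, the MHC class I-like protein lost in hereditary hemochromatosis, had signals of 264 ± 26.7 and 280 ± 28.4, a log2 ratio of 0.09 ± 0.21. Both ratios were smaller than their error, and both turned negative when the arrays were not scaled.

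Tfr2, the second transferrin receptor, which is expressed in hepatocytes and erythroid precursors, was brighter. Its signal was 803 ± 80.5 in the control pool and 1068 ± 107 in the CMS pool. The log2 ratio was 0.41 ± 0.20, a fold change of 1.33, and 5.81% of all gene names had a higher ratio. It remained above 0 under every alternative tried, from 0.24 without scaling to 0.44, and was below 2-fold throughout.

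Of the uptake genes, Tfrc had the best technical precision. Tfrc is the transferrin receptor through which most cells take up iron, and its mRNA is stabilized when iron is scarce. One Tfrc probe was spotted 10 times on each array, and 9 spots were free of outlier flags on both. Over these 9 spots the signal ran from 1144 to 1352 in the control pool, with a median of 1269. In the CMS pool it ran from 1004 to 1225, with a median of 1168. The ranges overlapped, but each of the 9 spots was lower in the CMS pool than at the same place on the control array, with log2 ratios from -0.21 to -0.05.

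The log2 ratio of the Tfrc probe was -0.13, with an SD between spots of 0.05. Spots on 1 array share 1 pool, so this spread says nothing of mice, and leaving out the scaling moved the median of all gene names by more, from -0.03 to -0.20. A second Tfrc probe had signals of 498 ± 49.9 and 465 ± 46.7, a log2 ratio of -0.10 ± 0.20. The remaining, dim probe had signals of 50.1 ± 6.28 and 59.0 ± 6.98, a log2 ratio of 0.23 ± 0.25, so the probes of the gene did not share 1 sign, and their mean log2 ratio was 0.00.

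**Figure D2:**
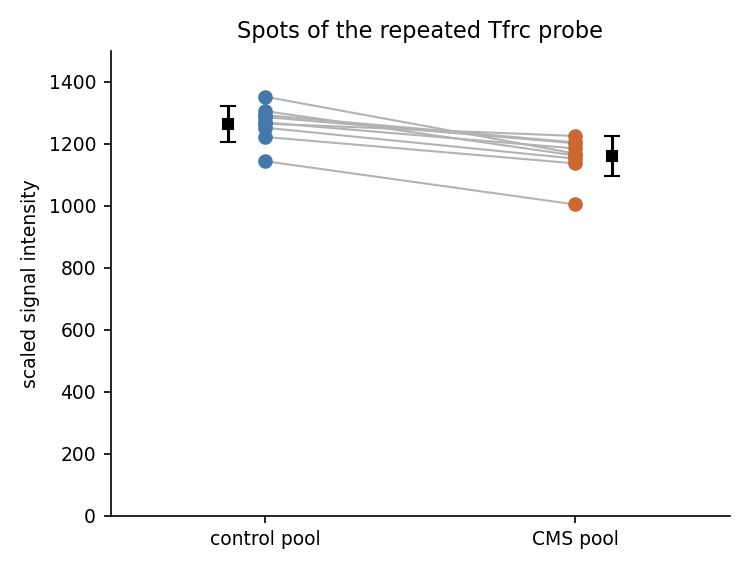
Scaled signal intensity of the 9 unflagged spots of the repeated Tfrc probe in the control pool and the CMS pool, with lines joining spots at the same place on both arrays and squares with bars for the mean and SD over spots. Every line falls from left to right, from a median of 1269 to one of 1168.

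Slc11a2 encodes DMT1, which moves ferrous iron across the cell membrane and out of endosomes. Its brighter probe had signals of 354 ± 35.6 in the control pool and 300 ± 30.3 in the CMS pool, or a log2 ratio of -0.24 ± 0.21. A second probe of the same transcript had signals of 87.1 ± 9.73 and 57.1 ± 7.12, a log2 ratio of -0.61 ± 0.24. Both probes were thus lower in the CMS pool and stayed above 0.5 times the control signal.

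Slc40a1, which encodes ferroportin, had signals of 337 ± 34.0 in the control pool and 354 ± 35.6 in the CMS pool. The log2 ratio was 0.07 ± 0.21, within its error. Hepcidin acts on the ferroportin protein, which arrays of mRNA do not measure.

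The ferritin subunits had log2 ratios well within their errors. Fth1, the heavy subunit with ferroxidase activity, had signals of 176710 ± 17671 in the control pool and 183254 ± 18325 in the CMS pool, or a log2 ratio of 0.05 ± 0.20. Ftl1, the light subunit, had signals of 56263 ± 5626 and 58681 ± 5868, a log2 ratio of 0.06 ± 0.20. A second Ftl1 probe gave 0.02 ± 0.20. No spot on either array was saturated.

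Across the members, 1 of 10 was more than 2-fold higher and 0 were more than 2-fold lower, beside 1.99% and 0.59% of all gene names. The gene that was higher, Hamp, had been picked by the study from these same arrays, so the count was not blind to the values. At 1.5-fold Hamp2 joined Hamp, which made 2 of 10 higher beside 3.71% of all gene names. Hamp2, at 1.51-fold, fell short of 1.5-fold when scaled to the median (log2 ratio of 0.56), under quantile normalization (0.57), without scaling (0.42) and under normexp (0.26). The median log2 ratio was 0.07 with Hamp and also 0.07 over the other 9 genes, against -0.03 over all gene names. Ratios of 7 members lay within 0.25 of 0. In the order of the ratios, Hamp stood apart from Hamp2 by more than their errors. Hamp2 and Tfr2 did not differ beyond their errors, nor did Hfe, Bmp6, Slc40a1, Ftl1 and Fth1, and Slc11a2 was lowest. For the 5 genes between 0.05 and 0.09 the sign turned negative without scaling, so no direction is given for them.

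**Figure D3:**
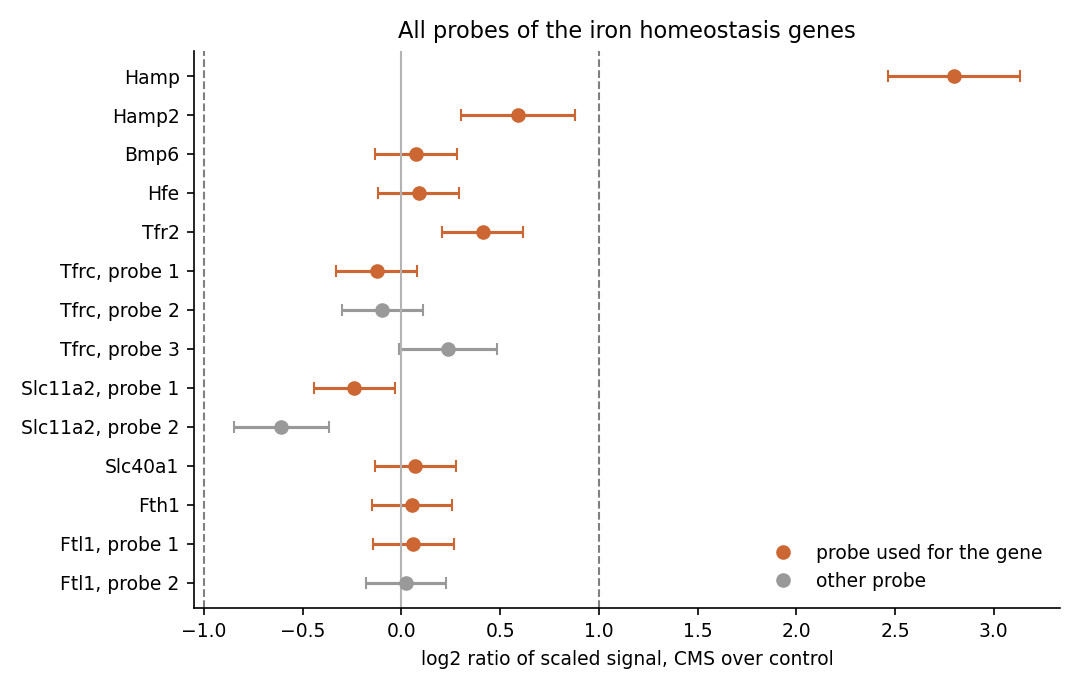
Log2 ratio of scaled signal, CMS over control, for all 14 probes of the iron homeostasis genes, with bars for the propagated scanner error and dashed lines at 2-fold. Hamp, at 2.80, lies alone beyond the lines, and the second Slc11a2 probe, at -0.61, is the lowest.

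**Figure D4:**
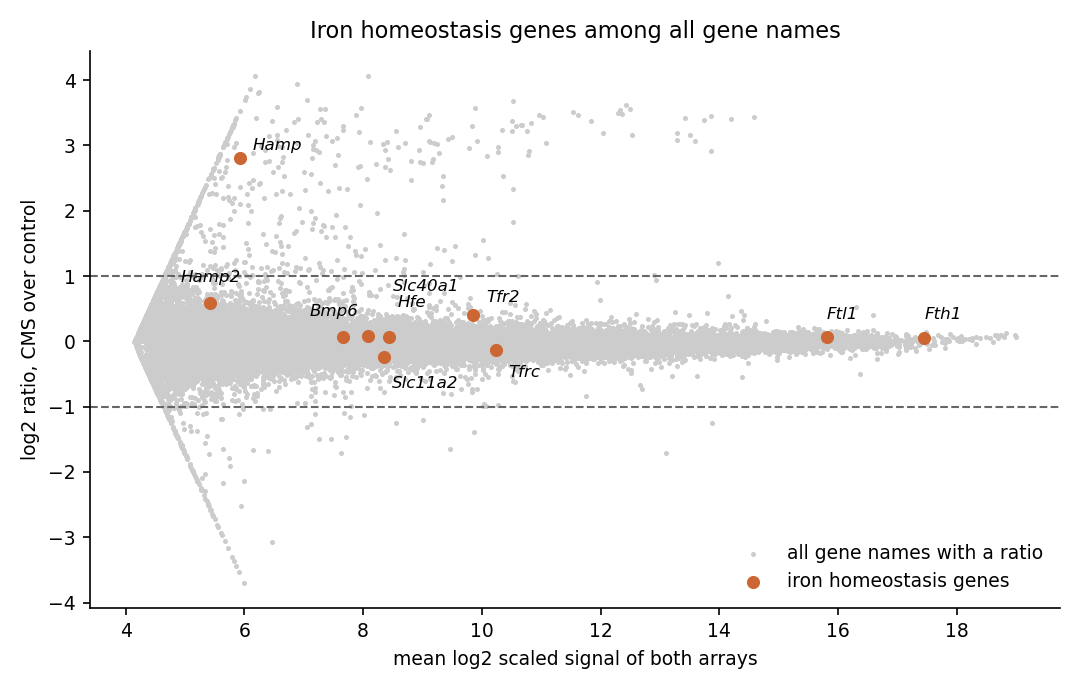
Log2 ratio, CMS over control, against the mean log2 scaled signal of both arrays for all 27119 gene names with a ratio (grey) and the iron homeostasis genes (orange), with dashed lines at 2-fold and straight edges at the left where ratios are bounds. Hamp lies in the sparse band of dim to bright genes near a log2 ratio of 3, and the other members lie in the main cloud.

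The 5 genes most like Hamp in their log2 signals on both arrays, by distance over these 2 arrays, were C8a, Fabp4, Serpina6, Ugt2a3 and Tdo2. C8a was closest, at a distance of 0.19, with signals of 20.2 in the control pool and 166 in the CMS pool. The farthest of the 5, Tdo2, had signals of 20.9 and 125, at a distance of 0.38. With 2 arrays this likeness holds only a level and a ratio.

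The wider iron pathway comprised 72 other genes, and 66 had a ratio. Of these, 6 were more than 2-fold higher and 1 was more than 2-fold lower, beside 1.99% and 0.59% of all gene names. The same shares stand beside the counts of the single lists below. The median log2 ratio of the 66 genes was -0.02. The genes that were higher were Tmprss6, Gdf15, Ltf, Cp, Hp and Hpx, the gene that was lower was Steap1, and no gene of storage, iron regulatory proteins or heme synthesis was past 2-fold.

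Among the regulators of hepcidin, 2 of 21 were higher and none lower. Tmprss6, the liver protease that cleaves hemojuvelin and so restrains hepcidin, went from a signal of 69.5 to 277, a log2 ratio of 1.99. Gdf15, a stress-induced cytokine, was 2.05-fold higher by its measured signals (20.6 in the control pool against 42.2), and it was not well above background in the control pool. Its log2 ratio was below 2-fold without scaling (0.86), under quantile normalization (0.997) and under normexp (0.25). The BMP receptor gene Acvr1 had a log2 ratio of -0.01 and Smad4, which carries the signal to the nucleus, one of -0.00. The other targets of BMP signaling in the list, named after their values were seen, were Id1, Smad7, Smad6 and Atoh8. Their log2 ratios were -0.15 for Id1, -0.06 for Smad7 and -0.01 for Smad6. Atoh8 went from 18.2, not well above background, to 22.9, a log2 ratio of 0.33. Socs3, a target of Stat3 also named afterwards, went from 378 to 267, a log2 ratio of -0.50. Il6 and Hjv, the latter encoding hemojuvelin, were not well above background in either pool.

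Among uptake genes, 1 of 9 was higher and 1 lower. Trf, which encodes the plasma iron carrier transferrin, went from 14224 to 23027, a log2 ratio of 0.69, and its second probe gave 0.79. Ltf, which encodes the neutrophil protein lactoferrin, was at least 2.03-fold higher, from 14.2 in the control pool, not well above background, to 36.2. Its log2 ratio was below 2-fold when scaled to the median (0.992), under quantile normalization (0.99), without scaling (0.85) and under normexp (0.34). Steap1, of a family that includes ferrireductases, was 2.05-fold lower, from 37.4 to 18.2, and was not well above background in the CMS pool. Under normexp its log2 ratio was -0.33. Slc39a14, a transporter of non-transferrin iron, had a log2 ratio of 0.03.

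Of the 2 export genes with a ratio besides Slc40a1, Cp, whose product ceruloplasmin oxidizes iron as it leaves the cell, went from 291 to 588, a log2 ratio of 1.01. Its log2 ratio was below 2-fold when scaled to the median (0.98), without scaling (0.84) and under normexp (0.84). Heph, the membrane-bound ferroxidase, had a log2 ratio of -0.02. The iron chaperone genes Pcbp1 and Pcbp2 had log2 ratios of -0.09 and 0.08, and Ncoa4, which sends ferritin to lysosomes, one of -0.05.

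The largest differences among these 66 genes were those of the plasma scavengers. Hp, encoding haptoglobin, which binds free hemoglobin, went from 645 to 4871, a log2 ratio of 2.92. Hpx, encoding the heme carrier hemopexin, went from 317 to 2456, a log2 ratio of 2.96. Both were well above background in the control pool as well, by far more than Hamp, and Hpx was among the genes the study picked. Elsewhere in the list, the heme oxygenase genes Hmox1 and Hmox2 had log2 ratios of -0.14 and 0.02, and the receptor gene Lrp1 had -0.10.

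The 5 genes around the iron regulatory proteins had a median log2 ratio of -0.19 and a range from -0.36 to -0.03. The iron regulatory proteins themselves are encoded by Aco1 and Ireb2. They bind iron-responsive elements in mRNAs that include those of Fth1, Ftl1, Tfrc and Slc40a1. The lowest of the 5 genes, Ireb2, was dim, with signals of 71.5 and 55.5. Epas1 was bright, with 17559 and 17107 and a log2 ratio of -0.04. Fbxl5, which marks Ireb2 protein for breakdown when iron is plentiful, had a log2 ratio of -0.03. Of 16 genes of heme synthesis and mitochondrial iron, 0 were past 2-fold and the median was 0.00. Alas1, the first enzyme of heme synthesis, had a log2 ratio of -0.00 and Iscu, the scaffold of iron-sulfur cluster assembly, one of -0.08. The highest, Alas2, at 0.49, is erythroid-specific and is also in the erythroid list.

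**Figure D5:**
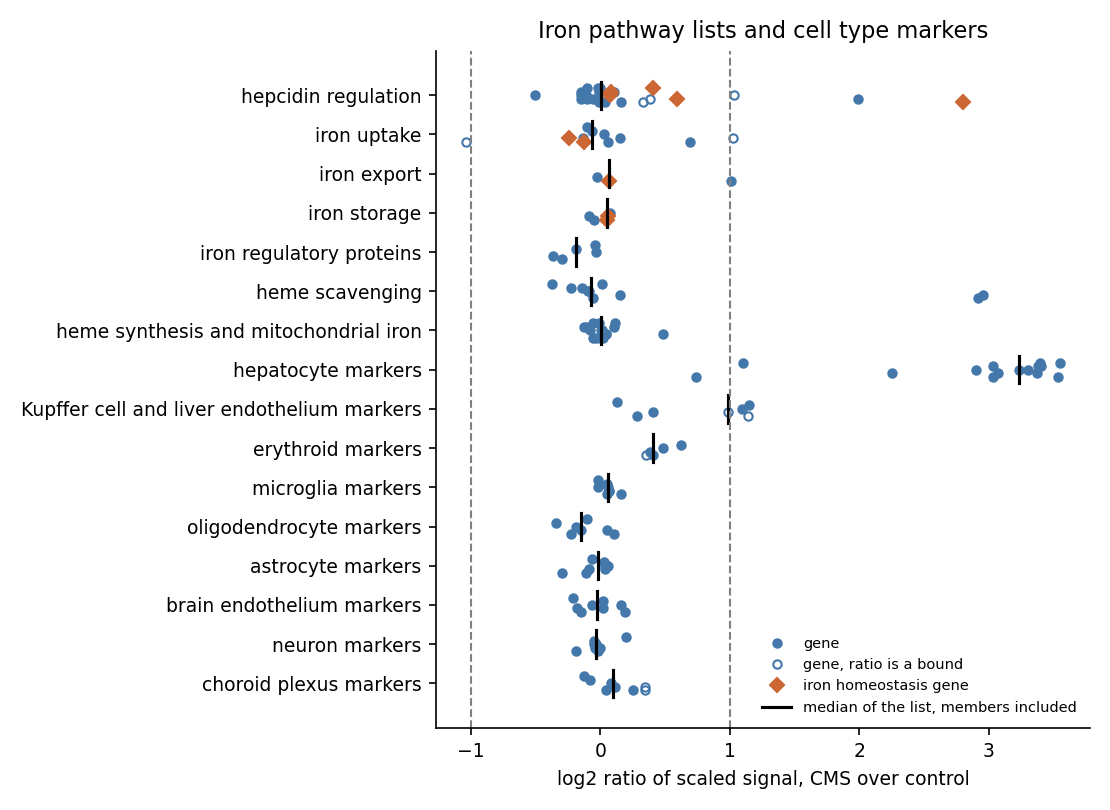
Log2 ratio of scaled signal, CMS over control, of each gene in the iron pathway lists and the cell type marker lists. Open circles are genes that failed the background call on an array, labelled as bounds, and diamonds are the iron homeostasis genes. Black lines are list medians and dashed lines are at 2-fold. The hepatocyte markers span a wide range, from 0.74 to 3.55, with a median of 3.23. Hamp, Hp and Hpx lie within it, as do Tmprss6, Gdf15, Ltf and Cp at lower ratios. The brain cell lists lie around 0.

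Markers of cells outside the cortex moved beside these genes. Of 15 hepatocyte markers, 14 exceeded 2-fold in the CMS pool, with a median log2 ratio of 3.23 and a range from 0.74 (Tat) to 3.55. Their summed signal was 10603 in the control pool and 92983 in the CMS pool. Alb went from 1509 to 17486 and Serpina1a from 4275 to 35977, and all 15 were well above background in both pools. The ratio of Hamp lay below that of 12 of the 15 markers. The part of this shift in the values of Hamp, Hamp2, Tfr2, Tmprss6, Cp, Trf, Hp and Hpx was not tested. Of the markers, the study had already picked Apoa1, Apob, Ahsg, Fgb, Hnf4a and Serpina1a from these same arrays. That these were past 2-fold was thus known beforehand.

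Of 7 markers of Kupffer cells and liver endothelium with a ratio, 3 were more than 2-fold higher, and the summed signal of the list was 460 in the control pool and 696 in the CMS pool. The median log2 ratio of the list was at least 0.99. The brightest markers, Cd5l and Marco, lay below it, with log2 ratios of 0.29 and 0.41, as did Fcgr2b at 0.13. Stab2 had 1.09 and Clec4g 1.15. Clec4f and Vsig4 were not well above background in the control pool, and their log2 ratios were at least 1.14 and 0.99. Timd4 was well above background in neither pool. Kupffer cells are rich in ferroportin, and the part of these cells in the Slc40a1 value was not tested.

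Of 5 erythroid markers with a ratio, 0 were past 2-fold, but all were above 0, with a median log2 ratio of 0.41 and a summed signal of 36089 in the control pool and 47485 in the CMS pool. Hba-a1 and Hbb-bt, the globin genes, had log2 ratios of 0.41 and 0.38. Epb42 was not well above background in either pool. Erythroid cells carry Tfrc and Tfr2, and the part of blood in these values was not tested.

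The lists of brain cell markers stayed near 0, and none of their genes was past 2-fold. Their median log2 ratio was -0.15 for oligodendrocytes, 0.06 for microglia, -0.02 for brain endothelium, -0.02 for astrocytes and -0.04 for neurons. Their summed signals in the control pool and the CMS pool were 90292 and 90431 for oligodendrocytes and 221498 and 232021 for microglia. For brain endothelium they were 11555 and 11758. Most of the oligodendrocyte sum was Ermn, at 66940 and 69221, and most of the microglia sum was Siglech, at 156486 and 164038. The other Ermn probe was far dimmer, at 628 and 622, as was the other Siglech probe, at 944 and 1030. Itgam had 33158 and 34619, and its other probes had 67.2 and 64.7, and 117 and 107. Of the brightest markers, Ermn and Mbp of oligodendrocytes had log2 ratios of 0.05 and 0.11. The other oligodendrocyte markers with a ratio were all below 0. They were Cnp at -0.11, Mog at -0.15, Mag at -0.19, Cldn11 at -0.23 and Mobp at -0.34. The brightest of microglia, Siglech and Itgam, had 0.07 and 0.06, and Flt1 and Cldn5 of endothelium 0.02 and 0.19. Aldoc and S100b of astrocytes had -0.11 and 0.06, and Syt1 and Snap25 of neurons -0.04 and -0.02. Choroid plexus, which makes transferrin and ceruloplasmin, had a median of 0.10 over 8 markers, of which 6 were well above background in the control pool, and its brightest markers Aqp1 and Kcnj13 had 0.08 and -0.12. In such bulk RNA, fewer cells of a type and less RNA per cell cannot be told apart.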

How the data were processed

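Each group's PFC RNA was hybridized as 1 pool. The deposited files hold, for each spot, background-subtracted and detrended signal intensities from Agilent Feature Extraction 10.10.1.1, with an error and flags. A processed table from the authors holds the same intensities, multiplied by a constant for each array.

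Control spots and flagged outlier spots (130 and 133) were left out, spots of 1 probe were averaged, and each array was scaled to the mean of 2500 named in the methods. The software's background call had to hold for at least 0.5 of a probe's spots. On an array where it did not, the higher of its signal and the lowest signal well above background (17.8 and 17.6) was used. Where the latter was used, the fold is a lower bound. Gdf15, Atoh8 and Steap1 kept their own signals. For a gene with several probes, the one highest in mean log2 signal was taken. RefSeq accessions were named through the GRCm38.p6 gene table for 30740 of 59305 spots. No log2 ratio was tested, and having 1 array per group limits the precision. The steps were tested on simulated data with the same noise at all signal levels, so the larger error of dim probes was not covered. Changes were planted only in genes well above background on both arrays.

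Members and lists were chosen with earlier results of these data known. One erythroid and 1 oligodendrocyte marker are not reported here and were left out of their lists. Named genes are the members, iron pathway genes past 2-fold, the 2 brightest of each list, and the 5 nearest to Hamp. Other genes in the text were named after their values were seen. Alternatives covered scaling, quantile normalization, normexp (limma 3.58.1), the deposited table, dim probes, outliers and probe choice. Python 3.11.15, pandas 2.3.3 and Biopython 1.88 were used.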

Additional observations from a re-analysis of the deposited data

How the results depend on the processing

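No paired analysis was possible because each group had 1 array, and no replicate could be left out. Hamp stayed more than 2-fold higher and no other member passed 2-fold under any of the alternatives, while at a threshold of 1.5-fold 2 members were higher (Hamp and Hamp2, the latter not under every scaling). Of the values compared for the members and the counts, 177 stayed within the limits (the SD of 0.13 between spots for ratios, 1.5 times for counts) and 29 moved.

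Without scaling all ratios shift down together by construction, and the median of all gene names was -0.20. The log2 ratios were then 2.63 for Hamp, 0.42 for Hamp2, -0.10 for Bmp6, -0.087 for Hfe, 0.24 for Tfr2, -0.30 for Tfrc, -0.41 for Slc11a2, -0.10 for Slc40a1, -0.12 for Fth1 and -0.11 for Ftl1, with a median of -0.10 over the members. Normexp with an offset of 50 and quantile normalization gave 1.36 for Hamp, 0.26 for Hamp2 and -0.091 for Bmp6. The mean of both probes gave -0.42 for Slc11a2.

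Of the other iron pathway genes, 3 were more than 2-fold higher without scaling and 3 under normexp, in place of 6. The number lower, 1, was 0 under normexp, 0 when both arrays had to pass the background call, and 2 with no filter. Over all gene names, 539 were higher, but 265 under normexp, 294 when both arrays had to pass, and 1493 with no filter. The 160 lower became 256 without scaling, 38 under normexp, 315 where dim signals got no bound, 44 when both arrays had to pass, and 1069 with no filter. The share of calls that were higher, 77.1%, was 62.9% without scaling, 87.5% under normexp, 87.0% when both arrays had to pass, and 58.3% with no filter. The filter settings admit fewer or more dim probes by construction, and the other causes were not tested. Signal over background limits the values of Hamp and Hamp2, which were near the floor in the control pool.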
